A study of Mus musculus with 24 samples.

Results

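The regions described here are 100-bp windows of the mouse genome that carry many CpG sites and that kept part, but not all, of their DNA 5-methylcytosine (5mC) signal when Tet2 was knocked out (KO) in mouse embryonic stem (mES) cells. They were chosen from the deposited list of windows that differed between Tet2-KO and WT cells after control siRNA (siNC) had been given to both. A window was taken if it lay on chromosomes 2 to 11, 13, 14 or 16 to 19, held at least 6 CpG sites, had more than 3 reads in at least 1 Tet2-KO library, and had a lower mean signal in Tet2-KO than in WT libraries. Windows of the ribosomal RNA block on chromosome 17 were left out. This gave 1824 windows, called members below, of 14279 listed (0.336% of those tested), of which 11865 were lower in Tet2 KO. Because the rule used the signal of these very libraries, every Tet2-KO and WT value below is a description without a test.

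DNA methylation was measured by MeDIP-seq, the sequencing of DNA fragments that a 5mC antibody has enriched. The series holds 24 libraries in 8 groups of 3, of which 18 are immunoprecipitates (IP) and 6 are inputs sequenced without the antibody. The groups used here were WT and Tet2-KO mES cells with siNC, the same 2 genotypes with siRNA against the RNA methyltransferase gene Nsun2 (siNsun2), and WT and Pspc1-KO mES cells without siRNA, the last pair with both IP and input. The WT and Tet2-KO lines were gifts of another laboratory. Cells of every group were grown in serum with LIF and the inhibitors CHIR99021 and PD0325901. The study calls the replicates of its genome-wide data biological. The labels name no clone, passage or separate culture for a replicate, so SDs and p-values measure the spread between these samples, and what that spread includes is not given in the sources used here. The Tet2 experiment had no input library, so a lower methylation level and a lower DNA copy number cannot be told apart at these windows.

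5mC in mammals sits mostly on CpG dinucleotides. It is dense over interspersed repeats, such as LINE-1 elements and the endogenous retroviral IAP elements. It also covers control regions of imprinted genes on only the maternal or the paternal allele, whereas most CpG-rich promoters lack it. TET2 is a dioxygenase that oxidizes 5mC in DNA and in RNA, the first step of removing the mark. The antibody captures a fragment more readily the more methylated cytosines it carries, so CpG-dense windows can give more signal at the same degree of methylation.

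Replicates 2 and 3 of Tet2-KO siNC, and replicates 2 and 3 of WT siNC, differed by less than the sampling noise (chi-square per degree of freedom 0.958 and 0.953), whereas their replicate 1 differed from both. Each such pair was averaged and counted as 1 sample, so means ± SD in the Tet2 experiment carry n = 2. The Tet2-KO libraries held 8.92 to 14.2 M reads and the WT siNC libraries 11.5 to 15.4 M. At 5 windows of the Tet2 gene (chr3:133487401-133487900) the Tet2-KO libraries held 0, 0 and 0 reads and the WT libraries 62, 83 and 78, as the label states. MeDIP reads show no transcripts, so the stem cell label was not checked against expressed markers.

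The following sequences show what such windows look like. All are the plus strand of mm10, 5′ to 3′, as given in the RefSeq copy of that assembly, with CpG sites in capitals. The first pair are, for each of the 2 largest sequence families, a member outside genes with the most copies of its middle 32 bases in the reference. The next pair lie at imprinted genes, outside annotated untranslated exons. The fifth is the single-copy place with the highest mean signal over the 3 WT libraries, and the last is the member with the most CpG sites.
LINE-1-linked window, chr16:84386701-84386800: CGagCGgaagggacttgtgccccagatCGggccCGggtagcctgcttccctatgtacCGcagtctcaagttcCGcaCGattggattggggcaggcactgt
IAP-linked window, chr17:34226001-34226100: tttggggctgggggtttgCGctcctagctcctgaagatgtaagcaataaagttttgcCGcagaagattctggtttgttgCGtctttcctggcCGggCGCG
Gnas, chr2:174298601-174298800: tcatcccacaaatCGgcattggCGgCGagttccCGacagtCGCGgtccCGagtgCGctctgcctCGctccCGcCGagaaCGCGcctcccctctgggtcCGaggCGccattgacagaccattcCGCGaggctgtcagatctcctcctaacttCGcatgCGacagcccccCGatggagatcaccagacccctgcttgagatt
Mest, chr6:30737901-30738000: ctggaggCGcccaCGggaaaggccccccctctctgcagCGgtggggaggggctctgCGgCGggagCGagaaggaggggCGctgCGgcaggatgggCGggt
Cdc20b intron, chr13:113056701-113057000: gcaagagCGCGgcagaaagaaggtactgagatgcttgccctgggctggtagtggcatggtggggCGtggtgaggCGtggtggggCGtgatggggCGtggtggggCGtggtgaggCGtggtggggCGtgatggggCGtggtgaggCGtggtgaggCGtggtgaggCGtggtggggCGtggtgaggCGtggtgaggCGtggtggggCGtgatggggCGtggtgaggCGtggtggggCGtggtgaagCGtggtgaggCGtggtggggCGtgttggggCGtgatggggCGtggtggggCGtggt
Ush1c, chr7:46236301-46236400: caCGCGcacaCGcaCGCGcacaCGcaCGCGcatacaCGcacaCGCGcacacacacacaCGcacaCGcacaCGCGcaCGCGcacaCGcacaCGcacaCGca

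The LINE-1-linked and IAP-linked windows had 5583 and 2664 copies of those middle bases in the reference, the other windows shown had 1. The LINE-1-linked window held 7 CpG sites. The Cdc20b stretch held 26 CpG sites in 300 bases, in a short unit repeated in tandem. The Ush1c window held 20, in a run of alternating CA and CG. The Gnas stretch held 20 CpG sites in 200 bases.

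At the 1824 windows most of the MeDIP signal was absent from Tet2-KO libraries. The rule asked for more than 3 reads in at least 1 of these libraries, and at 1005 windows all of them held more than 3 reads while at 412 only 1 did. The median window had 26.7 RPKM (reads per kilobase of window per M reads) in WT cells and 5.21 RPKM in Tet2-KO cells. The median signal left was 20.6% of WT, with quartiles of 15.2% and 30.3% and a range from 2.36% to 69.5%. The median over all 11865 listed lower windows was 12.6%. Lower windows were 0.279% of the 4252847 windows the authors tested, and because the rule used this contrast nothing is read from that share.

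By library, the WT siNC medians were 28.6, 24.8 and 26.1 RPKM, and the Tet2-KO medians were 5.60, 4.98 and 5.64 RPKM. The median log2 ratio to WT was -2.11, -2.20 and -2.20 in the 3 Tet2-KO libraries (SD 0.06, n = 2), and -2.26 from the group means, against -2.94 over all listed lower windows. Over the 800 windows with a Tet2-KO count above 10 it was -1.62, so the median depends on where the read threshold is set. At all 1824 windows the Tet2-KO and WT libraries did not overlap, as at 100% of the 11865 listed lower windows, which were selected on these libraries. The relative methylation score of MEDIPS, which corrects for CpG density, was lower in Tet2 KO at 1824 windows too and at 100% of all listed lower windows, with library medians of 0.39, 0.39 and 0.41 in WT and 0.24, 0.27 and 0.26 in Tet2 KO. These directions hold for signal scaled to library totals. With TMM factors estimated on the listed windows, which assume that most of them did not change, the list shifted up by 1.87 on the log2 scale, the median became -0.37, and 591 windows stood higher in Tet2 KO. Any place described below that kept more than about 27.3% of WT signal would stand higher in Tet2 KO on that scale.

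Few windows lay at either end. More than 50% of WT signal was left at 69 windows (3.78%), and less than 10% at 111 (6.09%). The highest share was at chr8:20946101-20946200, outside genes and with 1084 reference copies. It had 310.52, 265.66 and 292.44 RPKM in WT and 207.34, 194.06 and 202.48 RPKM in Tet2 KO, so that 68.8% was left. At a single named place the share left is given from the n = 2 means, and over many windows from the means of 3 libraries, which is why the ends of a range can differ from the values of single places. The lowest was at chr2:169944901-169945000 in an intron of Tshz2, a zinc-finger homeobox gene, with 78.06, 91.82 and 104.86 RPKM in WT and 2.24, 1.42 and 2.82 RPKM in Tet2 KO. Just inside the read threshold, 254 windows whose highest Tet2-KO count was 4 kept a median of 13.04%. Just outside it, 218 windows with a highest count of 3 kept 10.1%. At the CpG threshold, 680 windows with 6 sites kept 19.5% and 746 windows with 5 sites kept 21.6%.

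**Figure D1:**
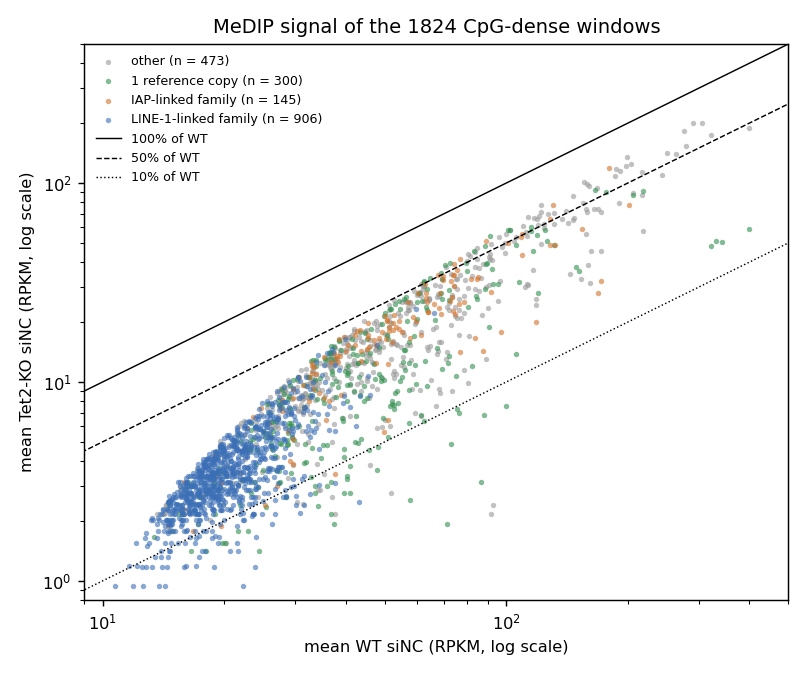
Mean Tet2-KO siNC signal against mean WT siNC signal (RPKM, both axes on a log scale, mean of 3 libraries) for the 1824 windows, coloured by class, with lines at 100%, 50% and 10% of WT. All points lie below the 100% line, the 906 LINE-1-linked windows crowd at low signal, and 69 windows lie above the 50% line.

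The share of signal left changed little with CpG number. It was 20.4% at 511 windows with 7 sites, 21.2% at 248 with 8, 21.98% at 235 with 9 or 10, and 24.0% at 150 with 11 to 20. WT signal rose over the same steps from a median of 23.4 RPKM at 6 sites to 47.5 RPKM at 11 to 20 sites. Windows with fewer CpG sites that met the other parts of the rule lay in the same range, with 23.7% left at 1953 windows of 3 to 5 sites and 25.3% at 830 windows of 0 to 2 sites. Listed CpG-dense windows on these chromosomes that were lower in Tet2 KO, with 3 reads or fewer in each Tet2-KO library, numbered 537. Their median WT signal was 14.9 RPKM. Among the members 76.4% touched, directly or through a run, another listed lower window outside the rule, and 18.8% were in a run with a window at 3 reads or fewer in Tet2 KO.

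The members were mostly repeats. Of the members 80.5% were soft-masked as repeats in the reference, compared with 26.9% of all 205284 reference windows with 6 or more CpG sites on the same chromosomes. Only 4.39% lay within 1 kb of the start of a protein-coding gene, compared with 42.9% of those reference windows. Members fell in exons in 11.9%, in introns in 33.9% and outside genes in 54.2%, and the reference windows in 40.9%, 27.8% and 31.3%. Their mean GC content was close, 61.6% and 62.7%. Of all listed lower windows, whatever their CpG number, 74.2% were soft-masked and 3.92% lay near a coding start, so neither trait was particular to the members. The reference windows include those that the authors could not test for lack of reads, so the shares describe where the members lie and are no test.

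When windows that shared at least 20 of their 16-base words were joined, a single family held 906 of the 1824 windows (49.7%). It was spread over 16 chromosomes, with a median of 2272 reference copies of the middle 32 bases and 16.99% of WT signal left. Of its windows 831 (91.7%) had a match to the forward LINE-1 primer of the study within 8 kb, at a median distance of 3205 bases (quartiles 3043 and 3560). A match that close was present for 44 of the 918 other members (4.79%), and for 29.5% of 4279 other listed lower windows on the same chromosomes. The family is called LINE-1-linked here for that proximity. Its median was 19.9 RPKM in WT and 3.34 RPKM in Tet2 KO.

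LINE-1-linked members could cover many adjacent windows. Outside genes at chr4:56434901-56435700, 8 windows averaged 19.4, 17.03 and 17.42 RPKM in WT and 2.38, 1.95 and 2.91 RPKM in Tet2 KO. The libraries of the 2 genotypes did not overlap there. Reads of such copies were placed by the aligner at a single best position, so a value at 1 copy may include reads of others.

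The second family, 145 windows on 14 chromosomes, had a higher median share left, 34.4% of WT, with 49.3 RPKM in WT and 16.7 RPKM in Tet2 KO. A match to any of the IAP primers of the study, forward or reverse, lay within 8 kb of 116 of its windows (80%). This compares with 4.29% of the other members, and the family is called IAP-linked here. For LINE-1 only the forward primer was searched, so these shares are not counted alike. A share of IAP matches over other listed lower windows is not given here. Its printed window had 89.34, 69.99 and 76.20 RPKM in WT and 31.38, 23.46 and 21.16 RPKM in Tet2 KO, so the groups did not overlap and 33.1% was left. Family 10, with 20 windows, had such a match at 19 windows (95%) and kept 30.1%. IAP elements are among the repeats whose silencing depends most on 5mC in mouse cells.

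Smaller families differed in where they lay. Families 4, 7 and 9, with 37, 27 and 24 windows, all lay within chr8:123538001-123623000 in the body of Gm20388, where the annotation also lists the 5S ribosomal RNA gene n-R5s149. Their medians were 27.1%, 30.6% and 34.4% left. Family 5, 31 windows with 51 reference copies at the median, lay within chr6:114500701-114627400 outside genes and kept 28.0%. Family 3, 63 windows with a median of 12 CpG sites, was spread over 15 chromosomes and kept 28.0%. Family 6, 29 windows on 12 chromosomes, had the highest median of the 10 largest families, 45.3% left at 112 RPKM in WT. Outside the LINE-1-linked family the median was 29.3% left over 918 windows, and 329 windows belonged to no family.

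**Figure D2:**
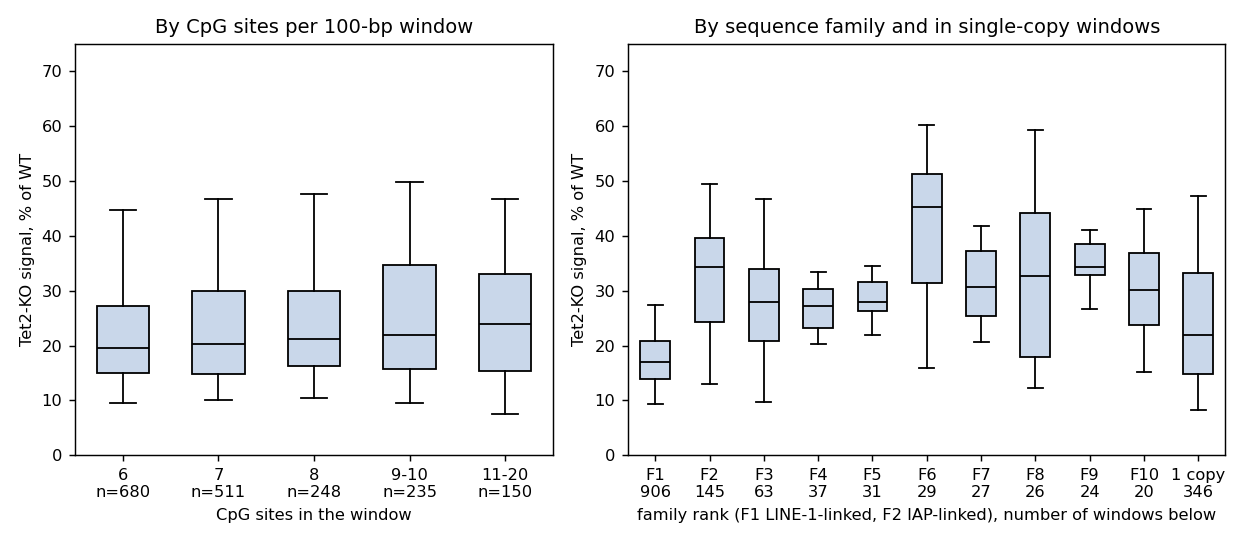
Tet2-KO signal as a percentage of WT (y axis, %) by number of CpG sites per window (left) and by sequence family or in windows with 1 reference copy (right). Boxes show the quartiles with the median line, whiskers run from the 5th to the 95th percentile, and counts of windows stand below. Medians rise from 19.5% at 6 sites to 24.0% at 11 to 20 sites, while families range from 16.99% in the LINE-1-linked to 45.3% in family 6.

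The windows were unevenly spread. They touched 583 megabases of the genome, of which 223 held a single member, and the 1-Mb bin of chromosome 8 from 123 Mb held 88. The bin of chromosome 6 from 114 Mb held 44. That of chromosome 13 from 113 Mb held 28, of which 19 had 1 reference copy. Of the windows listed in these 3 bins, 207 of 216, 234 of 237 and 225 of 225 were lower in Tet2 KO, compared with 83.1% of the whole list. The adjoining bin of chromosome 13 from 112 Mb held 13 members, and 139 of its 144 listed windows were lower. Ddx4, described below, lies in that bin, and Cdc20b and Esm1 lie in the one from 113 Mb. Per 1000 CpG-dense reference windows, members were most frequent on chromosome 6, at 15.9, and least on chromosome 11, at 2.79. No input was sequenced in this experiment, so a change in DNA copy number over such a block cannot be told apart from a change in methylation.

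Windows with 1 reference copy show the signal where the middle of the window has no exact second match, so fewer reads could be shared between copies. There were 346 (18.97%), with a median of 38.7 RPKM in WT, 8.24 RPKM in Tet2 KO and 21.9% left. Of these 156 lay in exons, 91 in introns and 99 outside genes, and 66 lay within 1 kb of a coding start, with 17.8% left. The signal left was 16.8% at the 633 windows with over 1000 reference copies and 29.3% at the 351 windows with 11 to 100.

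Of the gene lists examined, that of imprinted genes held the most members. These genes are expressed mainly from 1 parental allele. A control region carries 5mC, laid down in the germ line, on only the maternal or the paternal allele. Of 61 imprinted genes listed, 10 held a member, with 40 members in all, each with 1 reference copy. That is 16.4% of these genes, compared with 1.35% of 21924 protein-coding genes and 0.811% of 55341 genes of any kind, and the list was chosen with earlier results known. On the chromosomes of the rule it is 19.6% of 51 imprinted genes, compared with 1.63% of 18150 protein-coding genes. The median share left at the 40 members was 13.6%, with a range from 5.16% to 33.1%, compared with 21.9% over all single-copy members and 20.6% over all members. Across all listed windows, 25 of the 61 genes held 179 that were lower and 0 that were higher in Tet2 KO, where 83.1% of the whole list was lower. The share of all genes that hold such a window is not given here, so nothing is read from 25 of 61.

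Mest, a paternally expressed gene of the alpha/beta-hydrolase fold, held 8 members between chr6:30737101 and chr6:30738800, in its introns and exons. Their mean signal was 56.8, 41.2 and 45.2 RPKM in WT and 6.44, 5.15 and 6.09 RPKM in Tet2 KO. The groups did not overlap, and the means of 50.004 ± 9.63 and 6.03 ± 0.582 RPKM (SD, n = 2) left 12.1%. The window of Mest printed above held 49.4, 42.1 and 39.1 RPKM in WT and 5.60, 6.40 and 3.53 RPKM in Tet2 KO.

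Gnas, which encodes the stimulatory G protein alpha subunit and has several promoters of opposite imprinting, held the most members of any imprinted gene, 18 in 6 stretches with 141 CpG sites (chr2:174297201-174300900). Mean signal was 29.8, 27.5 and 28.5 RPKM in WT and 4.92, 5.09 and 5.06 RPKM in Tet2 KO, with 17.3% left. The share differed along the locus. The first stretch, 3 intronic windows from chr2:174297201-174297500, had 20.5, 18.3 and 15.6 RPKM in WT and 1.87, 0.473 and 3.53 RPKM in Tet2 KO. With only 5, 2 and 15 reads in the Tet2-KO libraries its share left was 10.3%, and 6.24% without replicate 3 of Tet2 KO. The 6 exonic windows of chr2:174298401-174299000, which include the sequence above, kept 21.0%, with 36.6, 40.1 and 39.2 RPKM in WT and 7.85, 10.4 and 5.88 RPKM in Tet2 KO.

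Plagl1, a zinc-finger transcription factor gene, held 5 adjacent exonic members (chr10:13090601-13091100). They averaged 43.0, 27.5 and 34.5 RPKM in WT and 3.58, 3.84 and 1.83 RPKM in Tet2 KO, which left 8.67%. Nnat, the neuronatin gene inside an intron of Blcap, held 5 adjacent members with 34.5, 37.2 and 35.7 RPKM in WT and 2.24, 2.13 and 2.258 RPKM in Tet2 KO. This was the lowest share of the imprinted genes, 6.25%. At both genes every Tet2-KO library lay far below every WT library.

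The other imprinted places had 1 or 2 members. At the retrogene Mcts2 within H13 (chr2:152687001-152687200) WT libraries held 29.1, 25.97 and 22.1 RPKM and Tet2-KO libraries 5.04, 6.40 and 8.47 RPKM. At Inpp5f, an inositol phosphatase gene, the WT libraries held 11.3, 39.9 and 30.6 RPKM and the Tet2-KO libraries 2.24, 3.55 and 3.53 RPKM. The spread between WT libraries, 23.3 ± 16.9 RPKM (SD, n = 2), makes the size at Inpp5f imprecise, with 12.4% left, and 8.20% without replicate 1 of WT. In the Igf2r intron that holds the start of the noncoding RNA Airn, 1 window (chr17:12741501-12741600) held 26.9, 31.6 and 28.7 RPKM in WT and 11.2, 5.69 and 11.99 RPKM in Tet2 KO, the highest share left of these genes, 35.2%. At some of these genes other listed windows nearby had no more than 3 reads in any Tet2-KO library. Within 3 kb of the members this held for 8 of 11 listed windows at Inpp5f, 5 of 10 at Plagl1, 3 of 9 at Nnat, 4 of 28 at Gnas, 0 of 21 at Mest, 0 of 2 at Mcts2 and 0 of 1 at Airn.

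The letters TGCCGC are the core bound by ZFP57, a zinc-finger protein that keeps 5mC at imprinted control regions. Searched on both strands, they were in 15 of the 40 windows at imprinted genes (37.5%), among them 7 of 8 at Mest, 4 of 18 at Gnas, 2 of 5 at Plagl1 and 2 of 5 at Nnat. They were in 11.3% of single-copy members, 4.06% of all members, 14.5% of the IAP-linked family and 8.75% of all CpG-dense reference windows. The Mest window printed above holds 1 such match. The cyclic AMP response element TGACGTCA was in 0.932% of members and 0.985% of reference windows, and the NRF1 motif in 0.110% and 0.303%. A match to these letters is no evidence of binding.

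**Figure D3:**
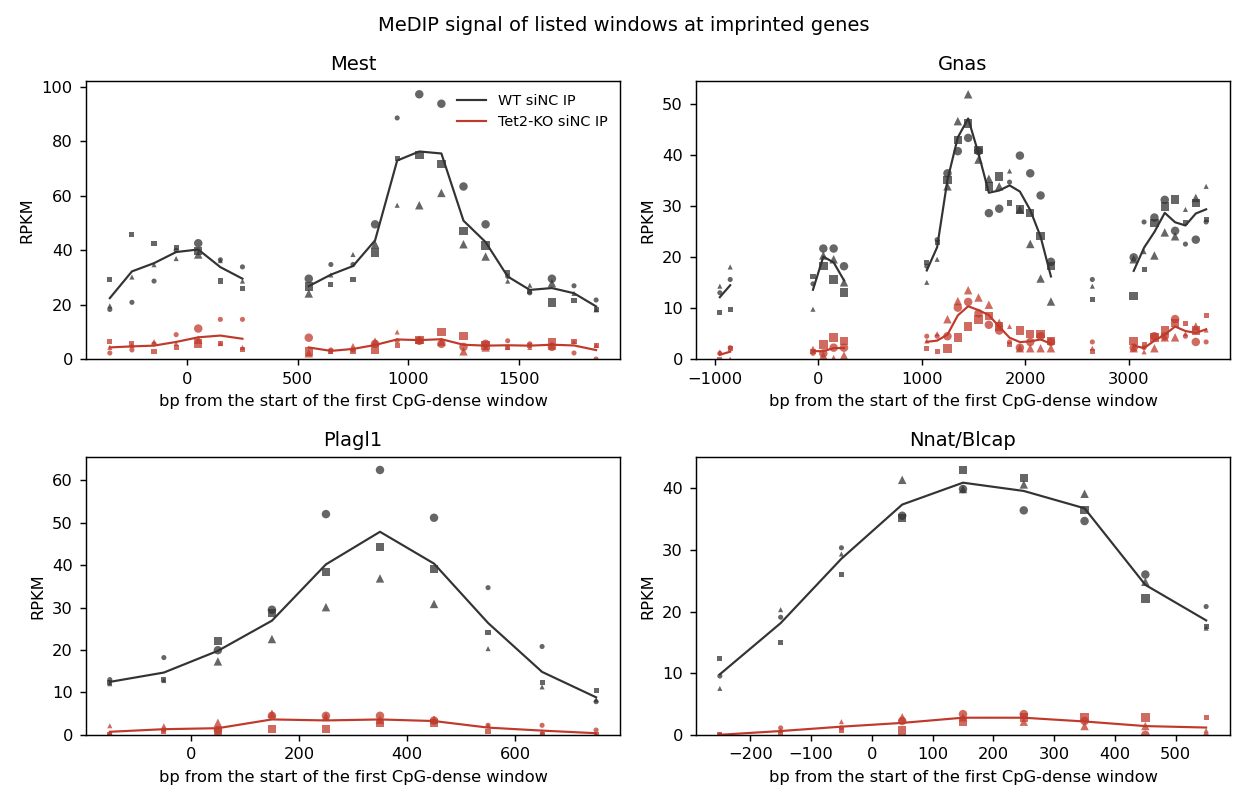
MeDIP signal (y axis, RPKM) of every listed window near 4 imprinted genes against distance from the start of the first CpG-dense member (x axis, bp). Points are single libraries, with a marker shape for each replicate, large for members and small for other listed windows, and lines join the means of adjacent windows for WT siNC IP (dark) and Tet2-KO siNC IP (red). WT signal peaks inside each stretch while Tet2-KO signal stays low along it, with 12.1% left at Mest and 6.25% at Nnat/Blcap.

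Of 32 germline genes silenced by DNA methylation, Sycp3 and Ddx4 held a member, 6.25% compared with the 1.35% of protein-coding genes. On the chromosomes of the rule this was 8.33% of 24 genes, compared with 1.63%. A share that rests on 2 genes is too imprecise to be read against these. Of all listed windows at the germline genes, 10 were lower and 1 was higher in Tet2 KO. Sycp3, a component of the synaptonemal complex, had 62.5, 61.0 and 62.9 RPKM in WT and 27.5, 23.1 and 35.6 RPKM in Tet2 KO at its start (chr10:88459801-88460000), with 45.7% left. Ddx4, a germ-cell RNA helicase, had 23.4, 22.6 and 23.5 RPKM in WT and 6.72, 3.55 and 3.53 RPKM in Tet2 KO in an intron. This gene lies in the block of chromosome 13 described above, where DNA copy number cannot be told apart from methylation. Of 22 genes of the 2-cell embryo only Duxf3 (4.55%), of the family that switches on that programme, held a member. Over 3 windows it had 257, 220 and 218 RPKM in WT and 135, 129 and 123 RPKM in Tet2 KO, with 54.9% left. Its windows had 1 to 3 reference copies, so reads of related copies may be included. The members at 28 genes of the DNA methylation machinery, 39 Hox genes, 33 genes of PRC1 and PR-DUB, 15 genes of RNA m5C and paraspeckles, and 23 pluripotency genes numbered 0, and these lists are too short for a 0 to be read against 1.35%. Some of their genes lie on chromosomes outside the rule and could hold no member. Of all listed windows at the pluripotency genes, 0 were lower and 7 were higher in Tet2 KO.

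Among all stretches of adjacent members the longest had 10 windows and 108 CpG sites, at exons of Hcn2, a pacemaker channel gene, within 1 kb of the start of Polrmt (chr10:79735001-79736000). It averaged 68.7, 49.1 and 48.1 RPKM in WT and 10.9, 7.82 and 7.34 RPKM in Tet2 KO, with 15.7% left. At Nefm, which encodes the medium neurofilament subunit, a stretch of 7 windows, 6 of them exonic and 1 intronic (chr14:68123601-68124300), averaged 30.2, 30.8 and 26.5 RPKM in WT and 5.92, 7.01 and 5.64 RPKM in Tet2 KO. The next stretch, 6 windows (chr14:68124401-68125000), kept 28.1%, compared with 20.8% in the first. The second stretch had 5 exonic windows and 1 outside the gene, and the windows of both had 1 reference copy.

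In exons of the zinc-finger gene Zfp629, 6 windows (chr7:127611001-127611600) averaged 88.3, 73.8 and 71.2 RPKM in WT and 30.3, 24.995 and 26.9 RPKM in Tet2 KO, with 35.0% left. Zfp13 had 5 exonic members in 3 stretches, of which the longest (chr17:23576501-23576800) averaged 127, 114 and 122 RPKM in WT and 54.2, 42.9 and 52.0 RPKM in Tet2 KO. In an intron of Matn4, a matrilin gene, 6 windows (chr2:164397601-164398200) with 1 to 7 reference copies kept 24.8%. At none of these places did the libraries of the genotypes overlap.

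The highest single window was in an intron of Pigf, a gene of GPI-anchor synthesis (chr17:87012801-87012900, 32 reference copies), with 458, 370 and 371 RPKM in WT and 220, 176 and 174 RPKM in Tet2 KO. Of places with 1 reference copy, the intron of Cdc20b printed above was the highest by the mean of the 3 WT libraries, and chr17:87248401-87248500 outside genes was the highest when replicates 2 and 3 count as 1 sample, at 353 RPKM compared with 332 RPKM. Its 3 windows averaged 279, 384 and 387 RPKM in WT and 38.5, 51.7 and 67.7 RPKM in Tet2 KO, with 14.8% left. Replicate 1 was the lowest library of both genotypes there. The place on chromosome 17 had 384, 315 and 328 RPKM in WT and 50.4, 48.3 and 53.6 RPKM in Tet2 KO. At the Ush1c window, with 20 CpG sites, the values were 39.9, 33.1 and 37.8 RPKM in WT and 6.72, 12.8 and 13.4 RPKM in Tet2 KO, so neither the highest signal nor the most CpG sites went with the largest share left.

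At the 10 stretches near coding starts with the highest WT signal, the share left ranged from 9.21% in Mest to 63.7% in AW822073. AW822073, next to Duxf3, had 199, 207 and 195 RPKM in WT and 142, 113 and 113 RPKM in Tet2 KO. Before Extl1, an exostosin-like glycosyltransferase gene, 1 window with 19 reference copies kept 52.3%, and at Fam149b 2 windows kept 42.9%. At the start of Esm1, a proteoglycan gene of endothelial cells, 1 window with 1 reference copy had 68.5, 60.2 and 61.9 RPKM in WT and 21.3, 27.0 and 20.5 RPKM in Tet2 KO, with 34.8% left. At these places every Tet2-KO library lay below every WT library. In the protocadherin alpha cluster on chromosome 18, the members in the exons of Pcdha6 and Pcdha7 kept 41.0% and 50.6%, with a median of 6.5 and 7 reference copies. In Tmem267, on chromosome 13, an exonic window with 2 copies kept 63.2%.

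**Figure D4:**
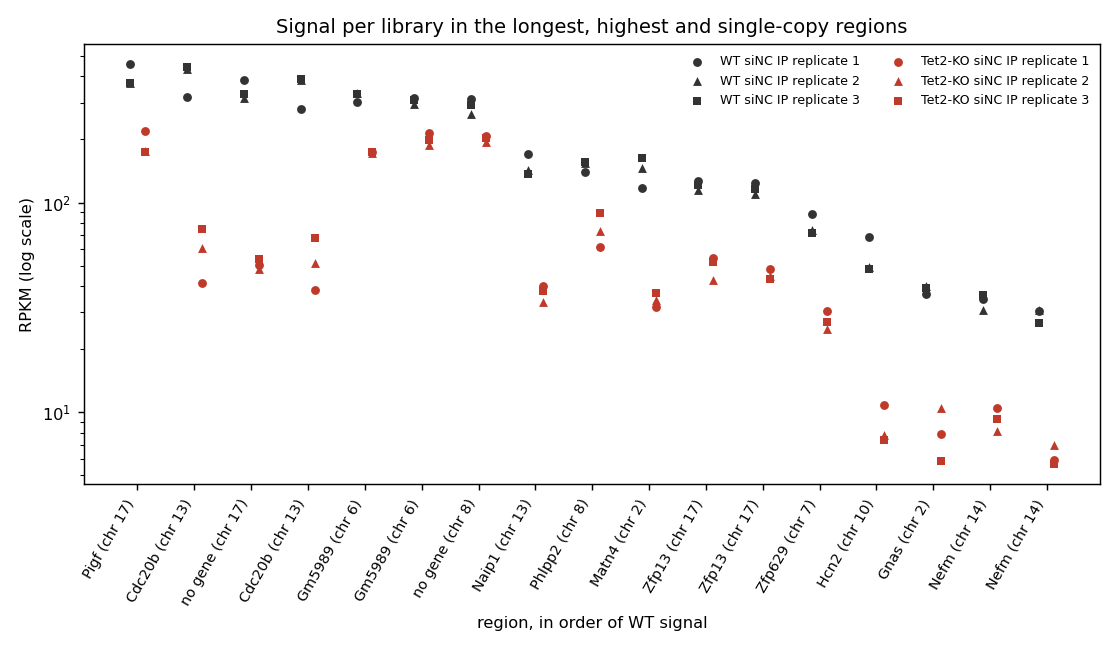
Signal of each library (y axis, RPKM, log scale) at the longest stretches, the highest windows and the highest single-copy stretches of members outside the LINE-1-linked family, ordered by WT signal along the x axis and named by gene and chromosome. Black markers are WT siNC IP, red markers Tet2-KO siNC IP, and shapes are replicates 1 to 3. In each place all red markers lie below all black ones, with the smallest gaps at Gm5989 on chromosome 6 and at the window of chromosome 8 that kept 68.8%.

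The Pspc1 experiment compared MeDIP signal between Pspc1-KO and WT cells, PSPC1 being an RNA-binding protein of paraspeckles. By mass spectrometry, the study saw no significant change of DNA 5mC levels in Pspc1 KO. The MeDIP libraries of that experiment took no part in choosing the windows. Of the 1824 members, 31 (1.70%) were also listed there, in 14 places, and they made up 10.1% of the 307 windows of that list (0.00571% of those tested). All 31 were lower in Pspc1 KO, and the IP libraries of the genotypes did not overlap at them, as at 100% of the 307 windows, which were selected on these libraries. In that list 249 windows were lower, 0.00463% of the 5378176 tested, and in the whole list 81.1% were lower. The share of windows also listed there was 0.973% for those of 3 to 5 CpG sites, 1.08% for those of 0 to 2, 1.86% for the 537 lower windows with 6 or more CpG sites and at most 3 reads in each Tet2-KO library, and 1.35% for all listed lower windows, so the members' 1.70% is near that of the rest.

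A larger share of the signal was left in Pspc1 KO at these windows. At the 31 windows the median log2 fold change was -0.55, from -1.27 to -0.28, and 41.4% to 82.3% of WT signal was left, with a median of 68.4%. In Tet2 KO the median left at the same windows was 16.7%, a value that helped to choose them, and the difference between the knockouts was not tested. The whole list had a median log2 fold change of -0.56. An edgeR quasi-likelihood test of the listed windows called all 31 lower, the largest Benjamini-Hochberg adjusted p being 7.15e-07, and it called all 307 windows, since the authors selected the list on these same libraries. It is therefore not independent evidence. That test kept the 3 WT IP libraries apart, and with the near-identical pair summed the largest adjusted p of the 31 was 2.21e-06 by the same edgeR test. With TMM factors, which shift the list by 0.49 on the log2 scale, 7 members were called lower and 4 higher, and with the size factors of DESeq2 3 and 4. Replicates 1 and 2 of WT IP differed by less than the sampling noise (chi-square per degree of freedom 0.940) while replicate 3 differed from both, and they were counted as 1 sample. In Pspc1-KO IP no pair differed beyond that noise (0.783 to 1.01), so no pair stood out and n = 3 was kept.

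At Plagl1 3 of its 5 members were listed. They averaged 111, 111 and 118 RPKM in WT and 74.2, 70.6 and 78.2 RPKM in Pspc1 KO, with 64.8% left, compared with 7.81% in Tet2 KO. Their inputs were at 0.684 ± 0.509 RPKM in WT and 1.03 ± 0.384 RPKM in Pspc1 KO (SD, n = 3). At Hcn2 7 members averaged 123, 118 and 113 RPKM in WT and 83.0, 78.3 and 80.7 RPKM in Pspc1 KO. The IP libraries of the genotypes did not overlap at either gene. At the Cdc20b intron 3 members averaged 395, 415 and 402 RPKM in WT and 322, 339 and 320 RPKM in Pspc1 KO, with 81.0% left. This intron lies in the chromosome 13 block described above. So do the shared places at chr13:113107501-113107600 and, in BC067074, at chr13:113308401-113308500. Chst13, a chondroitin sulfotransferase gene, had 3 listed members with 126, 125 and 124 RPKM in WT and 96.1, 77.7 and 88.1 RPKM in Pspc1 KO.

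In an intron of Synj2, a phosphoinositide phosphatase gene, 1 window (chr17:5949501-5949600) kept 72.3% in Pspc1 KO and 2.84% in Tet2 KO. Windows in the ribosomal protein pseudogene Rpl31-ps13, which overlaps the bacterial sensor gene Naip1, kept 75.3% and 24.2%. Of the 31 windows 23 had 1 reference copy. The inputs were high at 5 windows, those with 10 RPKM or more in WT. At chr3:5860401-5860800 the input held 59.5 ± 8.70 RPKM in WT and 59.9 ± 8.52 RPKM in Pspc1 KO (n = 3), above the IP signal of 47.3 ± 0.792 RPKM (n = 2) and 21.3 ± 1.23 RPKM (n = 3). The other 2 such windows lay at chr6:114560901-114561000 and in Gm20388 at chr8:123600801-123600900, inside the blocks described above. Without these 5 windows 26 members were called lower, with log2 fold changes from -0.72 to -0.28 and mean inputs of at most 6.18 RPKM in WT and 3.75 RPKM in Pspc1 KO.

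**Figure D5:**
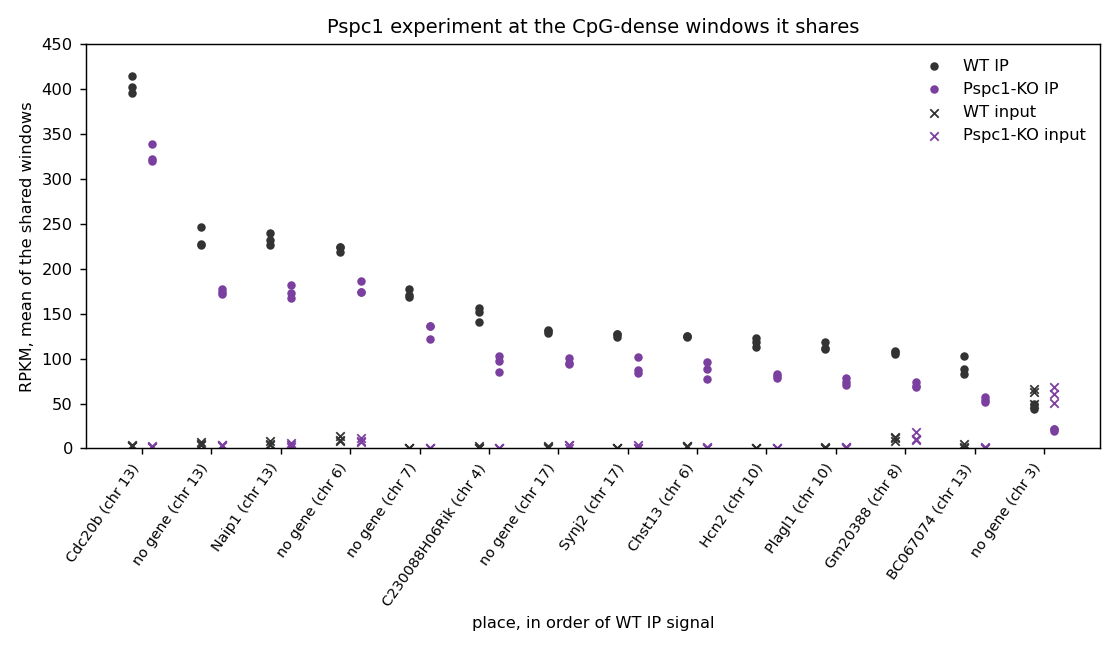
Mean signal (y axis, RPKM) of the members in each of the 14 places that the Pspc1 list shares, ordered along the x axis by WT IP signal and named by gene and chromosome. Dots are IP libraries and crosses input libraries of WT (dark) and Pspc1-KO cells (purple). All Pspc1-KO dots lie below the WT dots of their place, and only at the place of chromosome 3 do the inputs, near 59.5 RPKM, exceed the IP.

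The siNsun2 comparisons set MeDIP signal after knockdown of Nsun2 against that after siNC in each genotype. They reuse the siNC libraries that chose the members. Of the 244 windows listed in Tet2-KO cells (0.0056% of those tested) 0 were members, and of the 31 listed in WT cells (0.000747%) 0 were members. The tables hold only windows that passed the threshold of the authors, so the members' values after siNsun2 were not analysed here, and a change too small for that threshold would not be seen.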

How the data were processed

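The authors trimmed the reads (Trimmomatic 0.39), aligned them to mm10 with Bowtie2 2.4.1, removed duplicates with Picard and compared groups with MEDIPS, using edgeR in windows of 100 bp with at least 10 reads, no copy-number correction and Bonferroni adjustment. A read with several matches was placed by Bowtie2 at 1 best position. The 4 deposited tables hold windows with an adjusted p under 0.1. Per window they give the deposited counts of raw reads, RPKM computed by the authors, and the authors' relative methylation score, a fraction from 0 to 1. The deposited CpG score of a window (coupling factor) equalled the CpG sites of the reference window in 100% of 14195 windows. The authors' fold changes and p-values per window were not used, except that the deposited p-value and its adjusted value gave the number of windows tested.

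Library totals were recovered from count and RPKM. A log2 ratio is log2 of mean RPKM plus 0.1 in both groups. Over many windows, the share left is the ratio of means of 3 libraries; for a named place it is the ratio of the n = 2 means. Copies are exact matches of the middle 32 bases of a window, on both strands, in the mm10 reference. Gene positions came from the GENCODE annotation of that build, release M21. A gene held a member if a member overlapped it or lay within 1 kb of a transcript start. Families join windows that share at least 20 words of 16 bases on either strand. Merged members that touch form a stretch.

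Counts of the Pspc1 list were tested with the quasi-likelihood test of edgeR 4.0.16 in R 4.3.3 (group only, recovered totals, Benjamini-Hochberg over the list at 0.05), with DESeq2 1.42.0 as an alternative. The test was checked on simulated counts, with changes larger than those measured here. Replicates were compared by chi-square over windows with at least 20 reads, and a pair within sampling noise was counted as 1 sample only where another pair of its group differed. Same-numbered libraries of the Pspc1 experiment correlated at -0.03, -0.14 and -0.16 in their deviations from the group means, so the numbers were not taken as pairs.

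Named places followed a rule: the 8 longest stretches, the 6 highest windows, the 6 with most CpG sites, the 10 highest at coding starts, the 6 highest in coding exons and the 6 highest of single copy, every member in another list up to 10, and every listed gene with a member. Families, blocks and sequences were named outside it. Some places that the rule names are not reported here. The members, gene lists and rules were chosen with earlier results of these data known. The planned tests of members in the siNsun2 lists were not made, as no member was listed there.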

Additional observations from a re-analysis of the deposited data

How the results depend on the processing

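The median log2 ratio of the 1824 windows, -2.26, stayed negative under every alternative tried. The rule takes only windows lower in Tet2 KO, so on the scale of library totals this sign was set in advance. Only the TMM factors could turn it, and with them 591 windows stood higher in Tet2 KO. The median was -2.07 with a pseudocount of 1 RPKM, -2.16 for the 633 windows with at least 8 CpG sites, -1.62 for the 800 windows with a Tet2-KO count above 10, -2.17 for the 346 windows with 1 reference copy, and -0.37 with TMM factors, which by construction centre a list that is mostly lower. Without the LINE-1-linked family, an alternative chosen after seeing the data, it was -1.76 over 918 windows. Leaving out each library in turn gave -2.28 to -2.22. The other 6 settings stayed within the spread between replicates.

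For Pspc1 KO, the 31 members called lower became 7 with TMM factors and 3 with the size factors of DESeq2, both of which centre the list. Leaving out each IP library gave 31 to 31. With the replicate block 31 were called, and since same-numbered libraries did not correlate above 0.1 the pairing is a number only. Each of these settings called all 307 listed windows, because the list was selected on these libraries. An unchanged count of 31 therefore says nothing about stability. Without the windows of high input, chosen after seeing the data, the count was 26. The siNsun2 lists held 0 members, so no alternative could give a value and no paired analysis was possible for them.

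Depth limits the low end. A member held a median of 5, 7 and 8 reads in the Tet2-KO libraries, so the share left at a single window is imprecise. Windows below the authors' threshold were not analysed here.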
